A study of Mus musculus with 4 samples.

Results

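The genes Manf, Sdf2l1 and Creld2 encode small proteins of the endoplasmic reticulum (ER) that are induced when protein folding there fails, and each has a paralog, Cdnf, Sdf2 and Creld1. These 6 genes, of 49997 in the count tables, were read in RNA from cultured mouse AGM explants. The AGM (aorta-gonad-mesonephros) is the region where the first haematopoietic stem cells of the embryo arise. The 6 genes were taken by name. The set was chosen by earlier results of this same comparison, in which Sdf2l1 and Manf stood near the top of the ranking by p-value, so the differences of the members are descriptions and support nothing further. All 6 passed the filter on low counts.

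The explants were C57BL/6J, dissected at E10.5 or E11.5 (days of embryonic development) per the growth protocol, and held for 48 hours on a filter between gas and MyeloCult medium with hydrocortisone. The 2 untreated libraries had no further agent. The 2 CCCP libraries came from explants given 5 µM CCCP for those 48 hours, a compound that carries protons across the inner mitochondrial membrane and so dissipates its potential. The design text speaks of c-kit+ stem cells and of E10.5 alone, while TRIzol extraction is described for explants, and no label says how many embryos a library holds or whether the replicates were separate cultures, so p-values measure only the spread between these libraries.

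Unfolded proteins in the ER release the chaperone Hspa5 from sensors in the membrane. The sensor Ern1 then splices Xbp1 mRNA, Atf6 is cut to a transcription factor in the Golgi, and Eif2ak3 (Perk) slows translation while Atf4 is made. Xbp1 and Atf6 raise chaperones and degradation genes, through promoter elements built from the boxes CCAAT and CCACG, while Atf4 raises a stress programme that includes Ddit3 and Trib3. Manf binds Hspa5 and can be secreted to act as a survival factor. Sdf2l1 works with the Hspa5 cofactor Dnajb11 to keep clients soluble, and Creld2 is a cysteine-rich protein with EGF-like repeats. Among the paralogs, Cdnf is a neurotrophic factor, Sdf2 shares the MIR fold of Sdf2l1, and Creld1 is anchored in the membrane and known for its role in heart valve development.

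Manf, Sdf2l1 and Creld2 lack membrane anchors and are held back by a short carboxy-terminal tail that KDEL receptors bind, so the last 30 coding bases of each member are shown, from the GENCODE M21 transcripts of GRCm38, with the last 4 codons before the stop in capitals.
Manf: aaggcagccagcgcaCGGACTGATCTGtag
Sdf2l1: gatctctccacgggtCACGATGAACTCtga
Creld2: acacagccaccctccCGTGAGGATTTGtga
Cdnf: gtagagatataccccCAAACGGAGCTCtga
Sdf2: agggcagaggtccatCATGCAGAGCTGtga
Creld1: gtgctggagggcttcATCAAGGGTAGAtaa
Creld1, the member anchored in the membrane, is shown for contrast, and Cdnf and Sdf2 for the tails of the soluble paralogs. The coding sequences run to 540 bases for Manf and 564 for Cdnf, 666 for Sdf2l1 and 660 for Sdf2, and 1053 for Creld2 and 1263 for Creld1, with the stop codon. The longest exact stretch that paralogs share is 17 bases for Manf and Cdnf, 10 for Sdf2l1 and Sdf2, and 16 for Creld2 and Creld1.

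The libraries held 37360968 to 48827826 counted reads, and the common biological coefficient of variation was 21.9%. Levels are given as CPM, the counts scaled to library size over the genes kept by the filter, with TMM correction. RPKM, the same per kilobase of exon, is given where genes are compared. Marker levels, as summed RPKM per library, lay at 38.8 to 52.7 for 11 haematopoietic genes, 92.6 to 122 for 5 endothelial genes, 454 to 710 for 6 mesenchymal genes and 268 to 358 for 5 neural genes. Ptprc (CD45), which marks blood cells, had 6.85 and 6.82 CPM untreated and 3.65 and 3.39 CPM with CCCP, a log2 fold change of -0.96. That drop was larger than the median of -0.42 over the 10 haematopoietic genes tested, which ran from -1.75 (Spn) to -0.04 (Mecom). Kit, which encodes c-kit, had 51.3 and 63.2 CPM untreated and 47.6 and 51.7 CPM with CCCP. Its groups overlapped, with a log2 fold change of -0.21. Of the 10 haematopoietic genes tested, 3 were below and 0 above in both CCCP libraries, against 24.8% and 24.0% of all genes tested. In bulk RNA, fewer cells of a type and less RNA per cell cannot be told apart.

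Manf lies at chr9:106888753-106891938 on the minus strand of mm10, with 4 exons and 868 exonic bases. Untreated replicates 1 and 2 had 8729 and 6346 counts, and CCCP replicates 1 and 2 had 13790 and 11694, an order kept for every gene named here. These are 174 and 169.7 CPM untreated against 284 and 322 CPM with CCCP. Both CCCP libraries lay well above both untreated ones, which were nearly alike. Mean CPM was 172 ± 3.31 untreated and 303 ± 27.04 with CCCP (SD, n = 2), a ratio of 1.76. The log2 fold change was 0.82 (SE 0.125), and over the 4 ways to set a CCCP library against an untreated one the log2 ratio ran from 0.70 to 0.93.

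Sdf2l1 lies at chr16:17130138-17132383 on the minus strand, with 3 exons and 1108 exonic bases. It had 2559 and 1837 counts untreated and 4106 and 3596 counts with CCCP, or 51.1 and 49.1 CPM against 84.6 and 99.1 CPM. The groups did not overlap, and as for Manf the CCCP libraries were farther apart than the untreated ones. The mean went from 50.1 ± 1.41 to 91.9 ± 10.3 CPM (SD, n = 2), a ratio of 1.83, with a log2 fold change of 0.87 and a standard error of 0.128. Single pairs of libraries gave log2 ratios of 0.73 to 1.01.

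Creld2 lies at chr15:88819646-88826681 on the plus strand, with 10 exons and 1364 exonic bases. It had 4066 and 2458 counts untreated and 5941 and 4137 with CCCP, or 81.2 and 65.7 CPM against 122 and 114 CPM. The groups did not overlap here either, but the untreated libraries differed more, by a ratio of 1.24 against 1.03 for Manf and 1.04 for Sdf2l1. Mean CPM was 73.5 ± 10.96 untreated and 118 ± 5.91 with CCCP (SD, n = 2), a ratio of 1.61. The log2 fold change was 0.69 (SE 0.141), and single pairs ran from 0.49 to 0.90.

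**Figure D1:**
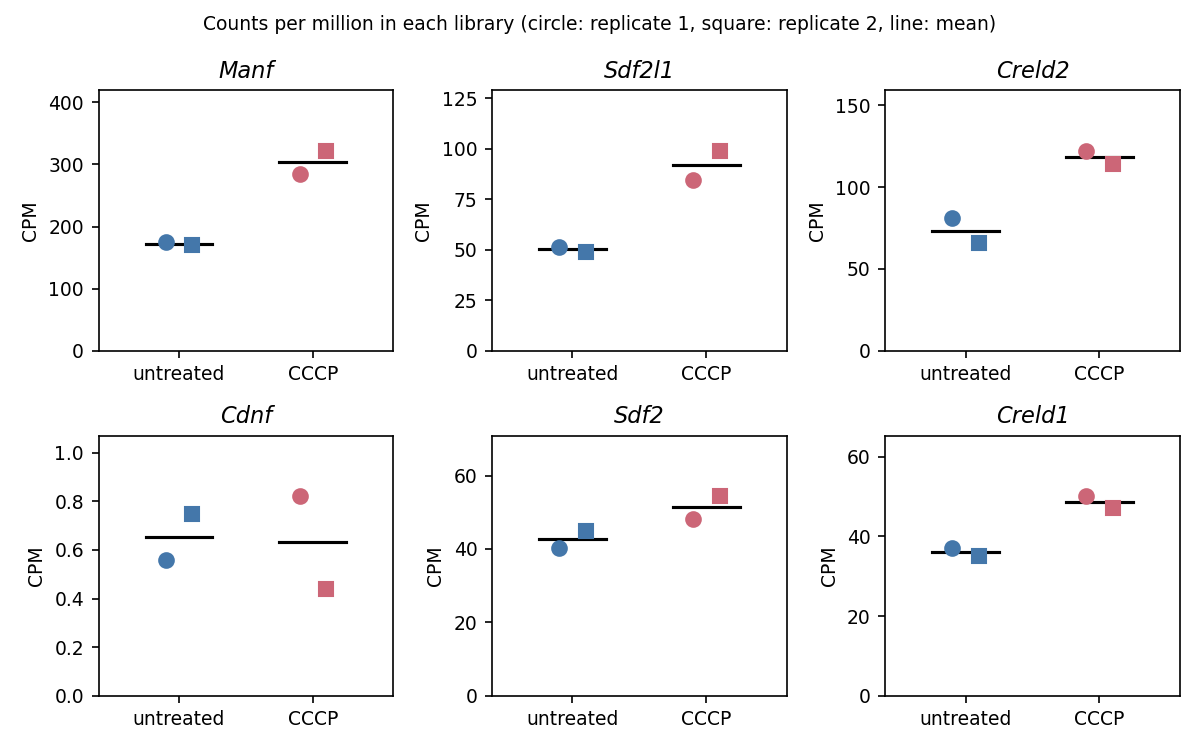
CPM of each member (vertical axis of each panel, from 0) in the 2 untreated and 2 CCCP libraries, with replicate 1 as circles, replicate 2 as squares and the group mean as a line. For Cdnf alone the points of the groups overlap, between 0.441 and 0.824 CPM.

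Among the paralogs, Cdnf (chr2:3513065-3526376, plus strand, 4 exons) was barely detected. It had 28 counts in each untreated library and 40 and 16 with CCCP, or 0.559 and 0.749 CPM against 0.824 and 0.441 CPM, where 3 counts are worth 0.0599 to 0.0827 CPM. The CCCP libraries held both the highest and the lowest value. Exact 95% Poisson intervals, which cover counting error only, ran from 0.252 to 0.716 CPM in CCCP replicate 2 and from 0.589 to 1.12 CPM in CCCP replicate 1. The log2 fold change of -0.03 had a standard error of 0.554. A difference of the size seen for Manf was not detectable at this depth. The sign turned with 1 library: 0.35 without CCCP replicate 2 and 0.22 without untreated replicate 2, against -0.55 without CCCP replicate 1.

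Sdf2 (chr11:78245746-78255496, plus strand, 4 exons, 1393 exonic bases) had 2018 and 1682 counts untreated and 2335 and 1979 with CCCP. The CPM values were 40.3 and 45.0 untreated and 48.1 and 54.6 with CCCP, so both CCCP libraries were above, by a small margin. Mean CPM was 42.6 ± 3.298 and 51.3 ± 4.56 (SD, n = 2), a ratio of 1.20, and the log2 fold change was 0.27 (SE 0.131). It was 0.14 once the trend of counts with exon length was removed. Exons of Sdf2 overlap exons of Supt6 and Gm18686 on the opposite strand, and the counting ignored strand, so its level is uncertain.

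Creld1 (chr6:113483356-113493343, plus strand, 10 exons, 2252 exonic bases) had 1852 and 1317 counts untreated and 2441 and 1708 with CCCP. In CPM these are 37.0 and 35.2 against 50.3 and 47.1, again with no overlap and with little spread within a group. The mean went from 36.1 ± 1.26 to 48.7 ± 2.27 CPM (SD, n = 2), a ratio of 1.35, with a log2 fold change of 0.43 and a standard error of 0.119. It was 0.24 once the trend with GC content was removed.

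Of the 6 members, 0 were called by edgeR's quasi-likelihood test at an adjusted p-value under 0.05, where 0% of the 19837 genes tested were called. At an unadjusted p-value under 0.05, 4 of the 6 passed in edgeR (Manf, Sdf2l1, Creld2 and Creld1), beside 5.45% of all genes tested higher in CCCP (1082 genes) and 9.16% lower (1817 genes). DESeq2 called 3, Manf, Sdf2l1 and Creld2, where it called 0.329% of the genes with an adjusted p-value as higher in CCCP. Without the filter on low counts edgeR called the same 3, with 3.43% of 32261 genes called. With the replicate number as a further term it called 4, these 3 and Creld1, where it called 2118 of the 19837 genes. Both CCCP libraries lay above both untreated ones for 5 of the 6 members, against 24.0% of all genes tested, and below them for 0 members, against 24.8%. The members were chosen on this contrast, so nothing is read from these counts.

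In untreated explants the RPKM was 198 ± 3.82 for Manf, 53.9 ± 8.03 for Creld2, 45.2 ± 1.28 for Sdf2l1, 30.6 ± 2.37 for Sdf2, 16.0 ± 0.559 for Creld1 and 0.217 ± 0.0444 for Cdnf (SD, n = 2). No neighbours in that order overlapped between their libraries, although Creld2 in replicate 2 (48.2 RPKM) came close to Sdf2l1 in replicate 1 (46.1 RPKM). With CCCP the order of the means was the same, at 349 ± 31.2, 86.7 ± 4.33, 82.9 ± 9.27, 36.9 ± 3.27, 21.6 ± 1.01 and 0.210 ± 0.0899 RPKM (SD, n = 2), and there Creld2 and Sdf2l1 did overlap. By mean RPKM over the 4 libraries, Manf stood above 99.3% of the genes tested, Creld2 above 96.2%, Sdf2l1 above 95.8%, Sdf2 above 90.7%, Creld1 above 82.0% and Cdnf above 13.8%.

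Each stress-induced gene was also set against its paralog within a library, a ratio that library scaling does not touch. The ratios are not adjusted for the trends with exon length and GC content, in which the members differ. Those over Sdf2 also carry the uncertainty of its level, since its exons overlap genes on the opposite strand. Counts per kilobase of Sdf2l1 were 1.59 and 1.37 times those of Sdf2 in the untreated libraries and 2.21 and 2.28 times with CCCP. The log2 ratio thus went from 0.57 ± 0.152 to 1.17 ± 0.0335 (SD, n = 2), a difference of 0.60 with a standard error of 0.110, and leaving out any 1 library gave 0.50 to 0.71. For Creld2 over Creld1 the ratio was 3.63 and 3.08 untreated and 4.02 and 4.00 with CCCP. Its log2 difference was 0.26 with a standard error of 0.117, and 0.15 without untreated replicate 2. Creld1 was itself higher in both CCCP libraries. Manf stood at 1082 and 787 times Cdnf untreated and at 1197 and 2537 times with CCCP. The difference of 0.92 on the log2 scale had a standard error of 0.589, with at most 40 counts of Cdnf in a library. It was 0.38 without CCCP replicate 2 and 1.46 without CCCP replicate 1. The ratios of the CCCP libraries were above those of the untreated libraries in all 3 pairs. For single genes, both CCCP libraries lay above both untreated ones in 24.0% of the genes tested. No such share was computed over other gene pairs, so nothing is read from that count. No test is given, since the members were chosen on this contrast.

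**Figure D2:**
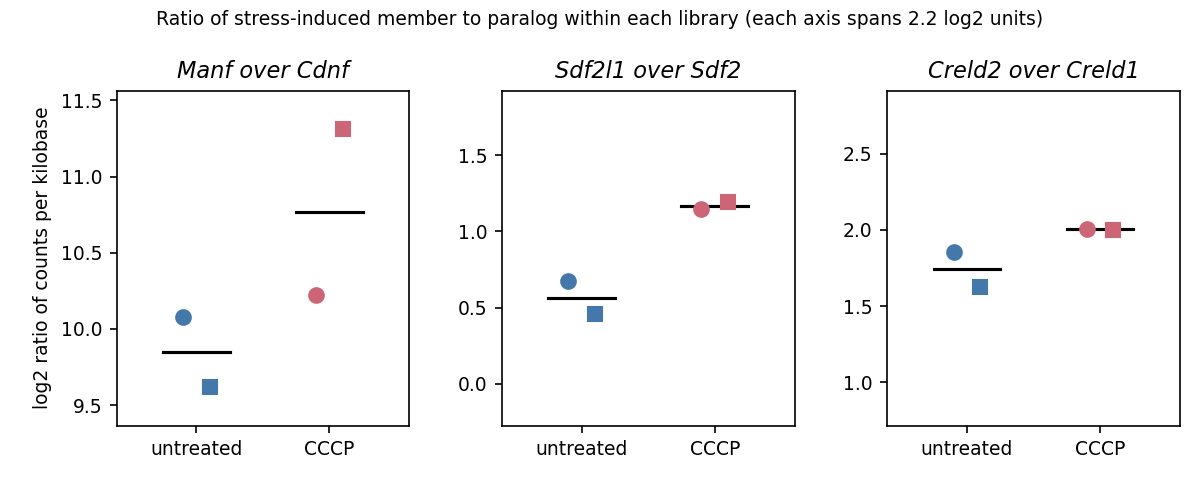
Log2 ratio of counts per kilobase of each stress-induced gene to its paralog within each library, untreated and CCCP, with circles for replicate 1, squares for replicate 2 and lines for group means, each vertical axis spanning 2.2 log2 units. Both CCCP points lie above both untreated points in each panel, and the Manf to Cdnf ratio spreads widest, from 10.2 to 11.3 in the CCCP libraries. How often other gene pairs separate in this way was not computed.

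Log2 fold changes went with gene length and base composition in these libraries, and the members differ in both. Over 10 equal bins of exon length the median log2 fold change ran from 0.22 in the shortest to -0.35 in the longest genes, and over 10 bins of transcript GC content it ran from -0.38 in the lowest to 0.18 in the highest. Manf, in the shortest bin with a GC content of 51.0%, lay above 94.1% of the genes of its length bin and 98.2% of its GC bin. Sdf2l1, in the second length bin at 56.7% GC, lay above 97.3% and 98.1%, and Creld2, in the same length bin at 54.8% GC, above 94.9% and 97.1%. Creld1 lay above 90.6% of its length bin and 85.1% of its GC bin, Sdf2 above 62.0% and 74.1%, and Cdnf above 37.9% and 57.3%. With the length trend removed the log2 fold changes were 0.62 for Manf, 0.71 for Sdf2l1 and 0.55 for Creld2, and with the GC trend removed 0.74, 0.69 and 0.53.

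**Figure D3:**
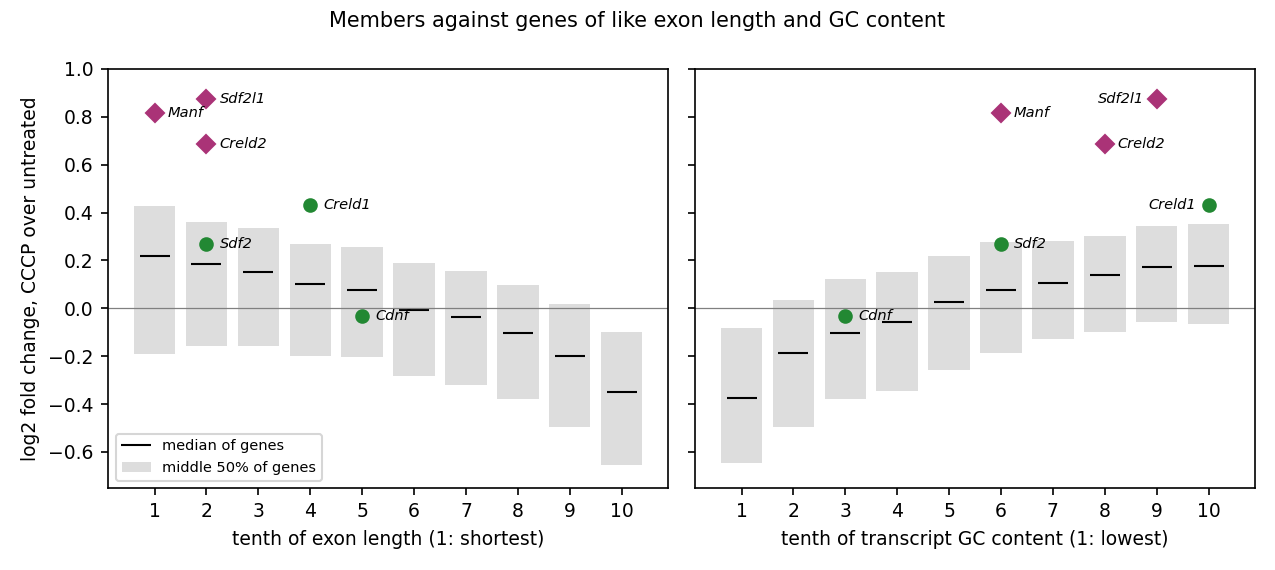
Log2 fold change of CCCP over untreated (vertical axis) for the members, as diamonds for Manf, Sdf2l1 and Creld2 and circles for the paralogs, over the bin of exon length (left) or GC content (right) they fall in, with grey bars for the middle 50% of the genes of each bin and lines for the medians. The 3 diamonds lie above the grey bar of their bin in both panels. Among the paralogs Creld1 also lies above its bar in both panels, and Sdf2 and Cdnf lie inside theirs.

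Marker lists of other cells were read in the same libraries. All 8 hepatic markers were lower in each CCCP library than in either untreated one, with a median log2 fold change of -4.74, and their summed RPKM was 734 and 425 untreated and 2.79 and 34.7 with CCCP. Alb (albumin) had 18845 and 5652 counts against 8 and 404, and Ahsg (fetuin) 3354 and 865 against 0 and 106. Summed RPKM of the skeletal muscle markers overlapped, at 222 and 138 untreated and 235 and 212 with CCCP, and of the 7 tested 2 were above in both CCCP libraries and 1 below, where 24.0% and 24.8% of all genes tested were. Summed RPKM of 6 macrophage markers was 91.1 and 64.0 untreated and 105.5 and 108.0 with CCCP, with 2 of the 6 above in both CCCP libraries, and that of 5 neural markers was 274 and 268 against 358 and 330.0, with 3 of the 5 above. Summed RPKM of 6 erythroid markers was higher in both CCCP libraries, at 1739 and 1857 against 2002 and 2646, with 2 above and 1 below. That of the 11 haematopoietic markers was lower in both, at 47.0 and 52.7 against 38.8 and 44.2, with 0 of the 10 tested above, 3 below and a median log2 fold change of -0.42. For 5 endothelial markers the sums overlapped, at 95.5 and 122 untreated and 99.9 and 92.6 with CCCP, with 0 above and 2 below. Those of 6 mesenchymal markers overlapped too, at 710 and 454 against 621 and 520, with 1 above and 1 below. So did those of 5 kidney and gonad markers, at 53.5 and 33.6 against 48.7 and 33.0, with 0 above and 0 below. No marker of these lists was at 0 in all 4 libraries. The part of any of these cell types in the levels of Manf, Sdf2l1 and Creld2 was not tested.

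Around the members, 64 other genes of ER folding, degradation and stress signalling were read, in 7 lists by role. None of the 64 was called by the main edgeR fit (lowest adjusted p 0.151). There 26 passed upward and 1 downward at an unadjusted p-value under 0.05. DESeq2 called 11, all higher in CCCP. Over all genes these shares were 5.45% upward and 9.16% downward in edgeR and 0.329% higher in DESeq2. Without the filter on low counts edgeR called 16 of the 64, beside 3.43% of all genes. With the replicate number as a further term it called 26, where it called 2118 of 19837 genes, but what a number marks is not stated. The median log2 fold change was 0.33, beside -0.01 over all genes tested, and 0.09 for the median, over the 64, of the median of each gene's length bin. Both CCCP libraries were above both untreated ones for 40 of the 64 (62.5%) and below for 3 (4.69%), against 24.0% and 24.8% of all genes tested, which are also the shares to set beside the counts of each list. The lists were chosen with earlier results of these data known, so these counts, shares and medians are descriptions and support nothing further. None of the 64 exceeded Sdf2l1, Manf or, except Trib3, Creld2 in log2 fold change. The members were chosen on this contrast, so that order was largely set in advance and nothing is read from it. These values are also not adjusted for exon length.

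In the list of 10 chaperones, 6 were above in both CCCP libraries and 4 overlapped. Hspa5 (BiP), the major ER chaperone, had 1092 and 971.0 CPM untreated and 1399 and 1285 CPM with CCCP, a log2 fold change of 0.38. Hyou1, its nucleotide exchange factor, had the largest value of the list at 0.57, and Dnajb11, the partner of Sdf2l1, had 114 and 98.7 CPM against 150.2 and 150.8 CPM, or 0.50. Dnajb9, another Hspa5 cofactor, stood at 0.38. Hsp90b1 (Grp94) had 1483 and 1229 CPM against 1530 and 1321 CPM, where the groups overlapped, and Dnajc3 had a log2 fold change of -0.01. Of the 10, DESeq2 called 2, both higher in CCCP, with Hyou1 the only one among the genes named in this paragraph.

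Of the 9 disulfide enzymes, 6 were above and 1 below in both CCCP libraries. Pdia5, a protein disulfide isomerase, went from 23.0 and 21.5 to 32.4 and 33.1 CPM (log2 fold change 0.56). Ero1a, the oxidase that recharges these enzymes, went the other way, from 81.6 and 101.8 CPM to 60.4 and 67.0 CPM (-0.53).

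In ER-associated degradation, which returns misfolded proteins to the cytosol, 11 of 12 genes were above and 1 below in both CCCP libraries, with a median of 0.31. Herpud1, a scaffold of the retrotranslocation complex, had 98.3 and 95.1 CPM untreated and 145 and 151 CPM with CCCP, a log2 fold change of 0.62. Derl3, a channel component, went from 19.5 and 13.9 to 27.4 and 25.7 CPM (0.67). The mannosidase Edem3 was lower, at 102 and 91.1 CPM against 65.0 and 84.3 CPM (-0.37). Herpud1 was called by DESeq2, and Derl3 and Edem3 were not.

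Of the 9 sensors and transcription factors, 5 were above and 1 below in both CCCP libraries, with a median of 0.18. Xbp1 had 91.8 and 94.2 CPM against 124 and 132 CPM, or 0.46 in log2 fold change. These counts do not separate its spliced and unspliced forms. Atf4 had 0.31, and Ddit3 (CHOP), at 36.7 and 37.5 CPM against 57.0 and 54.6 CPM, had 0.59. Mbtps2, the protease that releases Atf6, was lower at -0.30. Of the 7 Perk and Atf4 outputs, 3 were above in both CCCP libraries, 0 below and 4 overlapped, with a median of 0.35. Trib3, a pseudokinase, had 38.3 and 56.5 CPM untreated and 72.0 and 82.2 CPM with CCCP, a log2 fold change of 0.70. Atf3 had -0.01 with overlapping groups.

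All 14 genes of retrieval and translocation had a log2 fold change above 0, and 9 were above in both CCCP libraries, with a median of 0.37. Kdelr3, a receptor for the tails printed above, had 12.3 and 10.4 CPM against 13.6 and 17.3 CPM, or 0.44. Ssr2, a subunit beside the translocon, had 114 and 126 CPM against 175 and 184 CPM, or 0.58. Of the 3 partners and relatives, 0 stood apart between groups. Nptn, reported as a receptor for secreted Manf, had 79.6 and 69.9 CPM against 77.4 and 78.2 CPM (0.06), and the MIR-domain mannosyltransferase Pomt2 had 0.20.

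**Figure D4:**
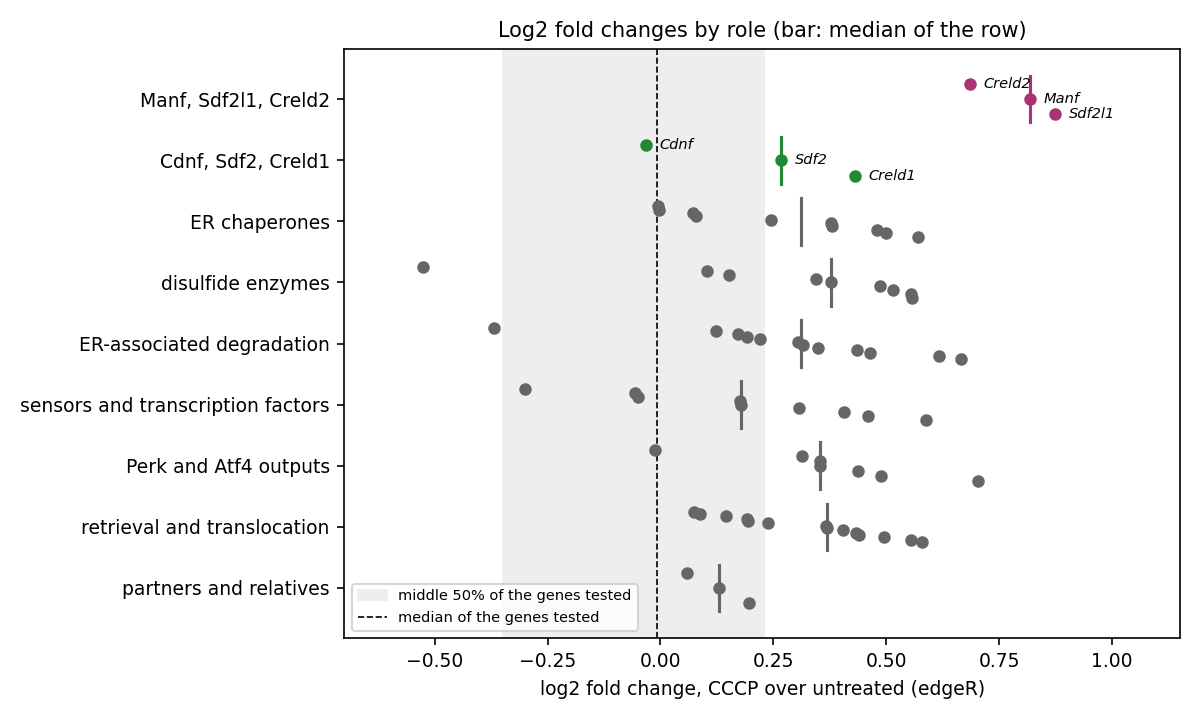
Log2 fold change of CCCP over untreated (horizontal axis) for the members and for the 64 genes of the 7 lists, 1 row a list, with a bar at the row's median, a grey band for the middle 50% of all genes tested (-0.35 to 0.23) and a dashed line for their median. Manf and Sdf2l1 lie to the right of every gene of the lists, and Creld2 of every one but Trib3. The members were chosen on this contrast, so nothing is read from that order.

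By distance over the 4 libraries (Euclidean, on log2 CPM after subtracting each gene's mean), Manf and Sdf2l1 were closest to each other, at 0.065. The nearest of 8523 other genes lay at 0.165 from Manf and at 0.145 from Sdf2l1, and was the muscle actin gene Acta1 for both. After it came Rps27a (0.190), Cdk2ap2 (0.199), Ehd1 (0.207) and the degradation gene Herpud1 (0.216) for Manf, and Rps27a (0.207), Wnt6 (0.233), Cdk2ap2 (0.251) and Eef2-ps2 (0.265) for Sdf2l1. Rps27a and Eef2-ps2 belong to families with near-identical copies, so their counts are uncertain. Creld2 had another set of neighbours, Derl3 (0.124), Tmem119 (0.140), C1qb (0.162), Oaf (0.163) and Wfs1 (0.178), the last an ER membrane protein, and stood at 0.301 from Manf and 0.341 from Sdf2l1. The paralogs lay farther from Manf, at 0.432 for Creld1, 0.566 for Sdf2 and 1.20 for Cdnf. Creld2, however, lay at 0.310 from its paralog Creld1, nearer than to Sdf2l1 and about as near as to Manf. The distance includes the difference between the groups, and Manf and Sdf2l1 had ranked near the top of that same comparison. Their closeness, and their distance from the paralogs, were thus largely set in advance, and nothing is read from them. With 4 libraries such distances are descriptions.

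The 250 bases before the annotated starts of Sdf2l1 and Creld2 are shown (RefSeq, GRCm38.p6, strand of the gene). CCAAT and CCACG boxes on either strand are in capitals. The Sdf2l1 window is chr16:17132384-17132633, minus strand, and the Creld2 window is chr15:88819396-88819645, plus strand.
Sdf2l1: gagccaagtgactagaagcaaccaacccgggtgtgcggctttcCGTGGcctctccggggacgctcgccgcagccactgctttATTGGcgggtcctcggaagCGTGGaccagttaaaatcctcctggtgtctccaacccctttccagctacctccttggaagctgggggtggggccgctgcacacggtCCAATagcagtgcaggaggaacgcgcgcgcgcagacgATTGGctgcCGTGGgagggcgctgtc
Creld2: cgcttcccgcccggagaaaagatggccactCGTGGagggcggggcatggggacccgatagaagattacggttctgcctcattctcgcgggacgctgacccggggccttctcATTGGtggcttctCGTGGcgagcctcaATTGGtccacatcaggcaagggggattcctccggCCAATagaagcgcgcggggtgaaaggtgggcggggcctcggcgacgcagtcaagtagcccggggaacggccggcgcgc
Sdf2l1 has 3 CCAAT and 3 CCACG boxes and Creld2 has 3 and 2, while Cdnf has 3 and 0, Creld1 has 1 and 0, and Sdf2 has neither at its 2 annotated starts. Of 32851 such windows, 33.8% hold a CCAAT and 28.3% a CCACG box. The full ER stress element, CCAAT and CCACG on the same strand with 9 bases between, occurs once in the Creld2 window, on the opposite strand with its far end 126 bases before the start, and in 0.113% of all windows. Counted by gene, in any of its windows, and so not on the same base as that share, it is in 9 of the 54 list genes that have a window. These are Calr, Canx, Derl3, Dnajc3, Ero1b, Hsp90b1, Hspa5, Pdia6 and Syvn1. In that order their log2 fold changes were 0.48, 0.08, 0.67, -0.01, 0.15, 0.07, 0.38, 0.51 and 0.35. The groups overlapped for Canx, Dnajc3, Ero1b and Hsp90b1. The second form, ATTGG and CCACG with 1 base between, is in none of the members' windows and in 0.0304% of all windows. Counted by gene, it is in 1 list gene (Herpud1). The Xbp1 site core TGACGTGG (0.563% of windows) is in none of the members' windows, and the Atf4 and C/EBP composite core TTGCNTCA (3.12%) is in that of Cdnf alone, 31 bases before the start. No window for Manf is used here. A match is a description of letters, and no binding was measured.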

How the data were processed

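RNA of AGM explants was measured in 4 poly(A) libraries, 2 untreated and 2 with CCCP, and grouped by sample title. The authors deposited unnormalized read counts for each gene from featureCounts 2.0.3 on the mm10 RefSeq annotation, per the file headers, which set neither strand nor the counting of read pairs as fragments. The exon length in the same deposited files is a value of another kind, in bases. HISAT2, SAMtools, Subread and FastQC are named in the submitters' processing notes; their settings are not given in the sources used here. The column header of untreated replicate 1 differs from its title by a letter, so that column was assigned through the deposit's own link of file to sample.

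The main fit was edgeR 4.0.16 (glmQLFit, glmQLFTest, two-sided) in R 4.3.3 on the counts, with TMM scaling, filterByExpr (minimum count 10, total 15), group as the only term and Benjamini-Hochberg adjustment over the 19837 genes kept, at a threshold of 0.05. Standard errors are the log2 fold change over the square root of F. DESeq2 1.42.0 was an alternative; 1923 of its adjusted p-values are missing. Length and GC trends were removed as loess offsets (span 0.3) per library; GC came from GENCODE M21 transcripts, for 90.4% of genes.

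The members and lists were chosen with earlier results of these data known. Named are the 6 members, 11 list genes fixed by name, the list gene with the largest log2 fold change in each direction (mean CPM of at least 5), and for Manf, Sdf2l1 and Creld2 the 5 nearest genes with a mean CPM of at least 20. Outside this rule, some cell type markers, genes that overlap Sdf2 and list genes with a promoter element are also named. Alternatives were other scalings, no filter, DESeq2, the replicate block, the 2 trends, and leaving out each library.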

Additional observations from a re-analysis of the deposited data

How the results depend on the processing

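Manf, Sdf2l1, Creld2, Sdf2 and Creld1 had a log2 fold change above 0 under all 13 alternatives, from 0.62 to 0.91 for Manf, 0.68 to 0.99 for Sdf2l1, 0.53 to 0.86 for Creld2, 0.14 to 0.38 for Sdf2 and 0.24 to 0.49 for Creld1. Cdnf turned to 0.066 with the GC trend removed and 0.035 with the replicate block as well, and ran from -0.55 to 0.35 when 1 library was left out. With library size alone, the median of all genes was -0.066.

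The genes called, 0 in the main fit, were 1107 without a filter, 594 in DESeq2, 2118 with the replicate block, 1233 with the block after removing the length trend, and 938 with the block after removing the GC trend. Under these 5 settings, in that order, 3, 3, 4, 3 and 3 of the 6 members were called, and 16, 11, 26, 18 and 14 of the 64 list genes. Each time 3 of the members were Manf, Sdf2l1 and Creld2, and the block added Creld1. Leaving out 1 library gave 10 to 46 called genes, among them 0 members and 0 list genes; the arm with 1 library is then assumed to vary like the other. Same-numbered libraries deviated together (r = 0.36 across 19837 genes, which are not independent), but what a number marks is not stated, so the block is no pairing by design.

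The median over the 64 list genes, 0.33, was 0.27 with library size alone, 0.28 with the length trend removed, 0.29 with the replicate block as well, and 0.28 to 0.39 when 1 library was left out. Depth limits Cdnf alone among the members, at 16 to 40 counts.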
